A study of Mus musculus with 9 samples.

Results

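Described here are 51 genes for the basal lamina, its receptors and the fibrillar matrix of mouse sciatic nerve, out of 25965 gene entries in the count table. The genes were taken by name, in 3 classes: 12 genes of the laminin and basal lamina class, 12 of the receptor and dystrophin complex class and 27 of the fibrillar matrix class. RNA-seq counts were available for PINCH1 mutant nerves, PINCH2 mutant nerves and nerves of control littermates, with 3 libraries in each group. Every library was a pool of 4 sciatic nerves from 1 male and 1 female, stripped of epineurium, so p-values measure the spread between such pools. All groups had the C57BL/6 background. The age was labelled postnatal day 15 in one field and day 14 in another. The sources used here do not give how the mutants were made, in which cells the gene was lost or what alleles the controls carried.

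A basal lamina is a thin sheet of matrix that covers the outer face of each Schwann cell and axon unit, and also surrounds perineurial and vascular cells. Schwann cells secrete most of it: laminin trimers and type IV collagen form networks that nidogens, perlecan and agrin join together. Schwann cells grip this sheet through integrins and through dystroglycan, whose partners utrophin and dystrophin reach the cytoskeleton. PINCH proteins, encoded by Lims1 (PINCH1) and Lims2 (PINCH2), are adaptors in a complex with integrin-linked kinase and parvin that couples integrins to actin. Fibroblasts of the nerve make most of the fibrillar collagens, which fill the endoneurium between the fibres.

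Library totals ran from 957828 to 1204964 counts, and these 51 genes took 0.220% to 0.394% of them. Where a gene had no counts, up to 3 could have been missed, or 2.49 to 3.13 CPM (counts scaled to library size), a limit for counting error only. At this depth 36 of the 51 genes passed the filter on low counts and were tested: 11 of the laminin and basal lamina class, 8 of the receptor class and 17 of the fibrillar matrix class. Among the values of these genes from 1 to 20 counts, 82.3% were odd numbers, against 55.2% of those over 50, and what this does to low counts was not tested. The 14 Schwann cell markers all passed the filter, with Pmp22, which encodes a protein of peripheral myelin, averaging 4130 CPM over the 9 libraries. Lims1 had 0, 1 and 3 counts in PINCH1 mutants, 0, 1 and 9 in PINCH2 mutants and 3, 7 and 7 in controls. For Lims2 the counts were 5, 3 and 1 in PINCH1 mutants, 5, 1 and 1 in PINCH2 mutants and 9, 1 and 5 in controls. Such counts are too low to check the genotype labels.

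None of the 36 tested genes passed an adjusted p of 0.05 in any comparison, by edgeR's quasi-likelihood test adjusted by Benjamini-Hochberg over all 4738 tested entries. DESeq2 and limma-voom also called 0 of these genes. The background was also near 0: 0.0633% of the tested entries passed between PINCH1 mutants and controls, 0.0211% between PINCH2 mutants and controls and 0.0844% between PINCH1 and PINCH2 mutants. The libraries of both mutants lay apart from the controls for 3 genes: Sparc, which encodes a collagen-binding protein, Col4a1, a type IV collagen chain, and Itga6, a laminin receptor subunit. Each of these 3 was lower in all 6 mutant libraries than in any control library, as were 2.09% of all 4738 tested entries. Sparc averaged 548 ± 96.0 CPM (SD, n = 3) in PINCH1 mutants and 624 ± 87.4 CPM in PINCH2 mutants, against 800 ± 84.2 CPM in controls.

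**Figure D1:**
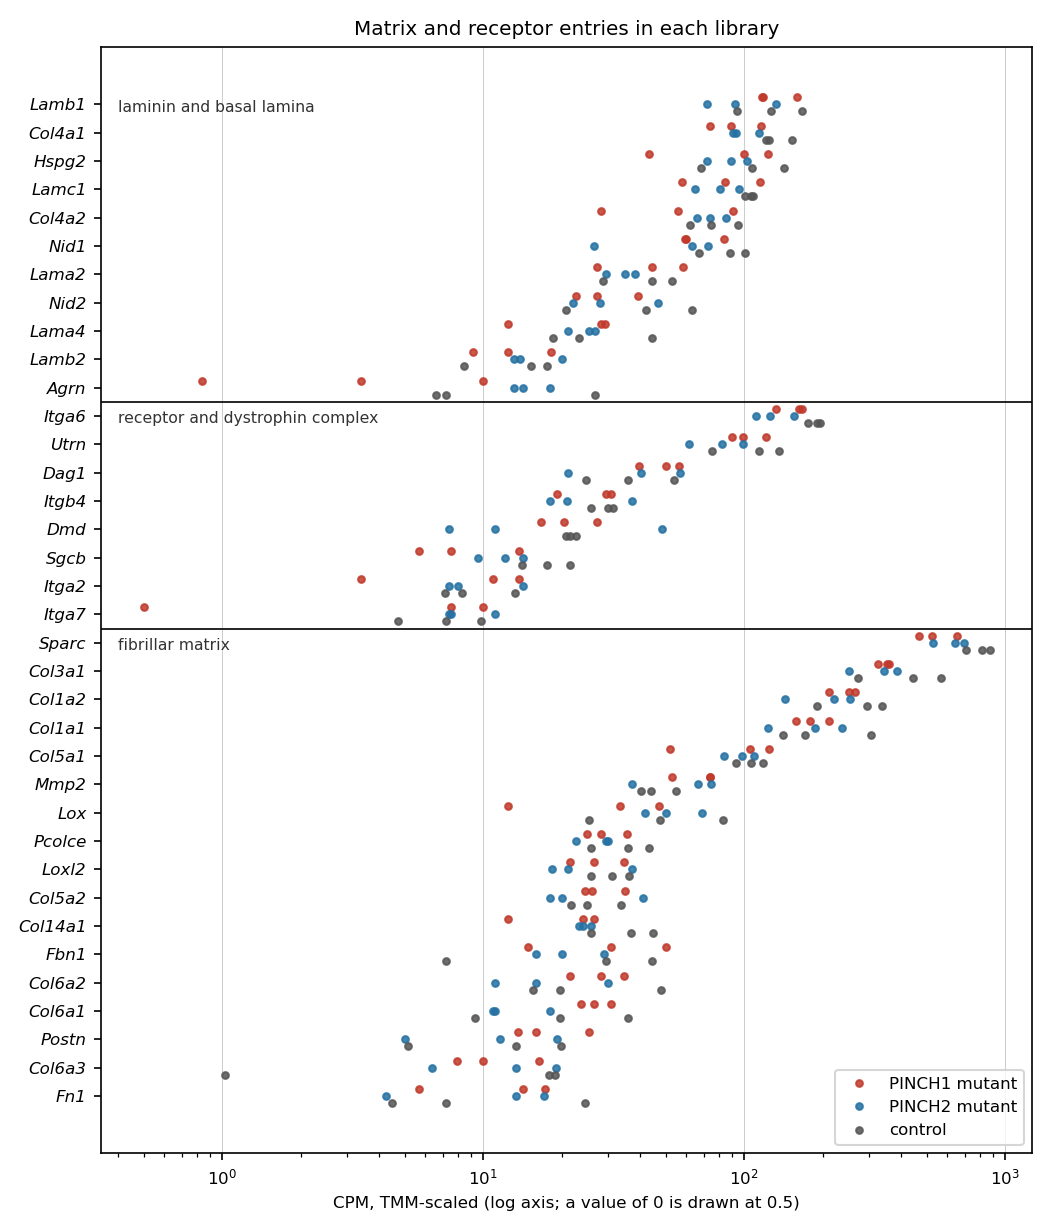
TMM-scaled CPM (log axis) of the 36 tested genes in each library, PINCH1 mutants in red, PINCH2 mutants in blue and controls in grey. Most rows interleave, while in the Sparc, Col4a1 and Itga6 rows all 3 grey points lie to the right of the 6 mutant points.

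Laminins are trimers of one alpha, one beta and one gamma chain. Lamb1, a beta chain, had 159, 118 and 117 CPM in PINCH1 mutants, 72.0, 132 and 92.5 CPM in PINCH2 mutants and 94.1, 127 and 167 CPM in controls. All groups overlapped. Its log2 fold change was 0.02 (SE 0.25) in PINCH1 mutants and -0.38 (SE 0.25) in PINCH2 mutants, each against control. Lamc1, the gamma chain of most laminins (chr1:153218922-153332786, minus strand), had 115, 57.9 and 84.3 CPM in PINCH1 mutants, 64.6, 81.2 and 95.5 CPM in PINCH2 mutants and 106, 101 and 108 CPM in controls. The PINCH2 mutant libraries all lay below the controls, by -0.38 on the log2 scale (SE 0.25). By edgeR this gave an adjusted p of 0.999. Lamc1 was the steadiest basal lamina gene among controls, at 105 ± 3.59 CPM (SD, n = 3).

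Lama2, the alpha chain of the main Schwann cell laminin, averaged 43.3 ± 15.6 CPM in PINCH1 mutants, 34.3 ± 4.33 CPM in PINCH2 mutants and 42.0 ± 12.1 CPM in controls (SD, n = 3 each). Lama4, an alpha chain also found in vessels and in developing nerve, averaged 23.3 ± 9.42 CPM in PINCH1 mutants, 24.4 ± 2.96 CPM in PINCH2 mutants and 28.7 ± 13.7 CPM in controls. Lamb2, the second beta chain, averaged 13.3 ± 4.59 CPM in PINCH1 mutants, 15.6 ± 3.86 CPM in PINCH2 mutants and 13.8 ± 4.72 CPM in controls. For all 3 chains the groups overlapped. Lama5, the remaining laminin gene, was not tested, with counts of 0, 1 and 3 in PINCH1 mutants, 2, 3 and 0 in PINCH2 mutants and 0, 4 and 2 in controls. Per kilobase of annotated exon, Lama2 stood at 0.254 ± 0.014 of the Lamc1 level in PINCH1 mutants, 0.218 ± 0.015 in PINCH2 mutants and 0.203 ± 0.0581 in controls. Lengths are the union of all annotated exons, so such ratios depend on which transcripts are made: with the longest transcript in place of the union, the control ratio was 0.318.

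Col4a1 and Col4a2 encode the pair of chains that wind into the commonest type IV collagen. Both genes start at the same place on chromosome 8 and run in opposite directions: their annotated first exons share 22 bases, at chr8:11312805-11312826. The 300 bases around each start (mostly upstream of it, RefSeq, GRCm38.p6) are printed 5′ to 3′ because of this overlap, with the 22 shared exon bases in capitals. Read on opposite strands, these are reverse complements of each other. The Sparc window is set beside them as that of the gene with the lowest p. Capitals there would mark matches to the promoter motifs counted below, and it holds none.
Col4a1, chr8:11312777-11313076, minus strand: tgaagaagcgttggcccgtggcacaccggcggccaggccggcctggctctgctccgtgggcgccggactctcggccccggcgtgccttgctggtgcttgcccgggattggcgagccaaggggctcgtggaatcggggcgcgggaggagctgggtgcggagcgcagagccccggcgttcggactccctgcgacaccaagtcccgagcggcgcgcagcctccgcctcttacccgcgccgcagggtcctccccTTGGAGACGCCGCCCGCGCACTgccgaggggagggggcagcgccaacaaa
Col4a2, chr8:11312555-11312854, plus strand: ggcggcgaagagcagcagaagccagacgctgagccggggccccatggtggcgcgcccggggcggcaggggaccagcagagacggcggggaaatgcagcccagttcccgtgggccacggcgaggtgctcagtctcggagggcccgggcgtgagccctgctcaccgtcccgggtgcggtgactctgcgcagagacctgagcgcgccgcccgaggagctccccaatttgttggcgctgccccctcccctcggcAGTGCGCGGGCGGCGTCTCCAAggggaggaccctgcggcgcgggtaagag
Sparc, chr11:55420031-55420330, minus strand: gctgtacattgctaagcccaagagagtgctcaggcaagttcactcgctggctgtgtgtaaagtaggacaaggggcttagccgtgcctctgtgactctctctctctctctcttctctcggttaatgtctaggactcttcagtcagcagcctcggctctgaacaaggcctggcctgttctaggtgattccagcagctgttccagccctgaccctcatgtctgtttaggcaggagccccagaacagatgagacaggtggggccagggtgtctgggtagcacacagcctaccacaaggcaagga
The windows of Col4a1 and Col4a2 overlap by 78 bases and have a G+C content of 74.0% and 73.7%, against 55.3% for Sparc. The GC box GGGCGG, searched on both strands, occurred once in the Col4a1 window, 3 times in the Col4a2 window and 0 times in the Sparc window. It was present in 35.7% of all 32851 promoter windows. The CCAAT box occurred once in each collagen window and 0 times in that of Sparc, and was present in 37.4% of all windows. The TATA box TATAAA, present in 13.6% of all windows, was in none of the 3. Of the 51 genes, 32 had a window in the table, 40 windows in all, and the GC box was in 28 of these 40, the CCAAT box in 10 and the TATA box in 7. These are letter matches in a fixed window, not measured binding.

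Col4a1 (ENSMUSG00000031502, chr8:11198423-11312826, minus strand) had 116, 73.8 and 89.3 CPM in PINCH1 mutants, 114, 92.9 and 90.5 CPM in PINCH2 mutants and 121, 125 and 152 CPM in controls. Neither mutant group overlapped the controls, though the highest library of each came close to the lowest control. Against control its log2 fold change was -0.51 (SE 0.22, 0.701-fold) in PINCH1 mutants, with an adjusted p of 0.717 by edgeR. In PINCH2 mutants it was -0.42 (SE 0.22), with an adjusted p of 0.999 by edgeR. Col4a1 differed by -0.09 (SE 0.22) between PINCH1 and PINCH2 mutants. Col4a2, its partner chain, averaged 58.2 ± 31.0 CPM in PINCH1 mutants, 75.2 ± 9.71 CPM in PINCH2 mutants and 77.2 ± 16.6 CPM in controls, with overlapping libraries. Per kilobase, the Col4a1 level was 1.62 ± 0.610 times that of Col4a2 in PINCH1 mutants, 1.18 ± 0.221 times in PINCH2 mutants and 1.55 ± 0.205 times in controls. The ratio ranged from 0.939 to 2.31 over the 9 libraries, and the groups overlapped.

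Nidogens and the proteoglycans perlecan and agrin link the laminin and collagen networks. Nid1 (nidogen-1, ENSMUSG00000005397, chr13:13437602-13512275, plus strand) had 83.9, 60.1 and 59.3 CPM in PINCH1 mutants, 26.5, 72.8 and 63.3 CPM in PINCH2 mutants and 67.2, 101 and 88.7 CPM in controls. The PINCH2 mutant difference from control was -0.65 on the log2 scale (SE 0.31; edgeR adjusted p = 0.999), and it was -0.33 without PINCH2 mutant replicate 1, the lowest library. That group overlapped the controls. Nid2 (nidogen-2) averaged 29.8 ± 8.52 CPM in PINCH1 mutants, 32.4 ± 12.9 CPM in PINCH2 mutants and 42.0 ± 21.2 CPM in controls. Hspg2 (perlecan) had 123, 43.1 and 100 CPM in PINCH1 mutants, 72.0, 103 and 89.4 CPM in PINCH2 mutants and 68.2, 107 and 142 CPM in controls. The lowest of these values was in PINCH1 mutant replicate 2, and the groups overlapped. Its log2 fold change was -0.25 (SE 0.32) in PINCH1 mutants and -0.27 (SE 0.32) in PINCH2 mutants, each against control, and 0.02 (SE 0.32) between PINCH1 and PINCH2 mutants.

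Agrn (agrin, ENSMUSG00000041936, chr4:156165290-156197488, minus strand) was the least abundant tested gene of the class. It had 11, 3 and 1 counts in PINCH1 mutants, 17, 17 and 13 in PINCH2 mutants and 7, 7 and 30 in controls. All 3 PINCH1 mutant libraries lay below all 3 PINCH2 mutant libraries, while the controls overlapped both. Between PINCH1 and PINCH2 mutants the log2 fold change was -1.64 (SE 0.71), with an adjusted p of 0.779 by edgeR. Between PINCH1 mutants and controls it was -1.51 (SE 0.72; edgeR adjusted p = 0.759), and -0.53 without control replicate 3, which held 30 of the control counts. At these counts agrin differences rest on a handful of reads.

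Integrins bind laminin as pairs of one alpha and one beta subunit. Itga6, the alpha 6 subunit (ENSMUSG00000027111, chr2:71745616-71858416, plus strand), was the most abundant receptor gene, with 167, 162 and 132 CPM in PINCH1 mutants, 111, 155 and 126 CPM in PINCH2 mutants and 175, 196 and 191 CPM in controls. No mutant library reached the lowest control. The log2 fold change in PINCH2 mutants was -0.52 (SE 0.19, 0.699-fold), with an adjusted p of 0.999 by edgeR. In PINCH1 mutants it was -0.29 (SE 0.19; edgeR adjusted p = 0.842). Scaling entries with and without an exon overlap on the opposite strand separately gave -0.11 in PINCH1 mutants. Between PINCH1 and PINCH2 mutants Itga6 differed by 0.23 (SE 0.19), within the spread of the libraries.

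Itgb4, the beta 4 subunit that pairs with alpha 6 on myelinating Schwann cells and is also made by perineurial cells, averaged 26.6 ± 6.43 CPM in PINCH1 mutants, 25.4 ± 10.3 CPM in PINCH2 mutants and 29.1 ± 2.90 CPM in controls. Itga7, a laminin receptor subunit of muscle and Schwann cells, averaged 5.85 ± 5.22 CPM in PINCH1 mutants, 8.67 ± 2.07 CPM in PINCH2 mutants and 7.27 ± 2.57 CPM in controls, and had 0 counts in PINCH1 mutant replicate 2. Itga2, an alpha subunit of a collagen and laminin receptor, averaged 9.31 ± 5.31 CPM in PINCH1 mutants, 9.89 ± 3.76 CPM in PINCH2 mutants and 9.54 ± 3.21 CPM in controls. All groups overlapped for these 3 subunits. Itga3 (36 counts over the 9 libraries) and Itga1 (16 counts) were not tested: Itga3 had 2, 1 and 4 counts in PINCH1 mutants, 3, 10 and 1 in PINCH2 mutants and 7, 3 and 5 in controls.

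Dystroglycan binds laminin and perlecan outside the cell and utrophin or dystrophin inside it. Dag1 (dystroglycan) had 56.5, 39.7 and 50.1 CPM in PINCH1 mutants, 40.2, 56.9 and 21.1 CPM in PINCH2 mutants and 24.8, 35.8 and 53.8 CPM in controls. Utrn (utrophin) had 121, 89.7 and 99.3 CPM in PINCH1 mutants, 82.6, 98.7 and 61.3 CPM in PINCH2 mutants and 75.5, 114 and 136 CPM in controls. Groups overlapped for both, with log2 fold changes in PINCH1 mutants of 0.35 (SE 0.36) for Dag1 and -0.07 (SE 0.25) for Utrn. In PINCH2 mutants they were 0.05 (SE 0.36) for Dag1 and -0.42 (SE 0.25) for Utrn.

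Dmd (dystrophin, of which Schwann cells make a short form) averaged 21.5 ± 5.41 CPM in PINCH1 mutants, 22.3 ± 22.8 CPM in PINCH2 mutants and 21.6 ± 0.976 CPM in controls. The wide PINCH2 mutant spread came from replicate 2, at 48.5 CPM, against 7.41 and 11.1 CPM in the other libraries of that group. Per kilobase of all annotated exons, Utrn stood at 2.83 to 15.5 times Dmd over the 9 libraries. By longest transcript it was 2.45 to 13.4 times. The length of the short Dmd form was not used, and with a shorter length these ratios would be lower. Sgcb (beta-sarcoglycan, ENSMUSG00000029156, chr5:73632749-73647713, minus strand) had 13.7, 5.67 and 7.51 CPM in PINCH1 mutants, 9.53, 14.2 and 12.1 CPM in PINCH2 mutants and 17.6, 14.1 and 21.5 CPM in controls. PINCH1 mutants lay below the controls, by -0.96 on the log2 scale (SE 0.49), though the nearest libraries were 13.7 and 14.1 CPM. By edgeR this gave an adjusted p of 0.776. Sgce (epsilon-sarcoglycan) was not tested, with 7, 7 and 7 counts in PINCH1 mutants, 11, 5 and 1 in PINCH2 mutants and 9, 9 and 13 in controls, and Dtna (alpha-dystrobrevin) had 26 counts over all libraries.

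**Figure D2:**
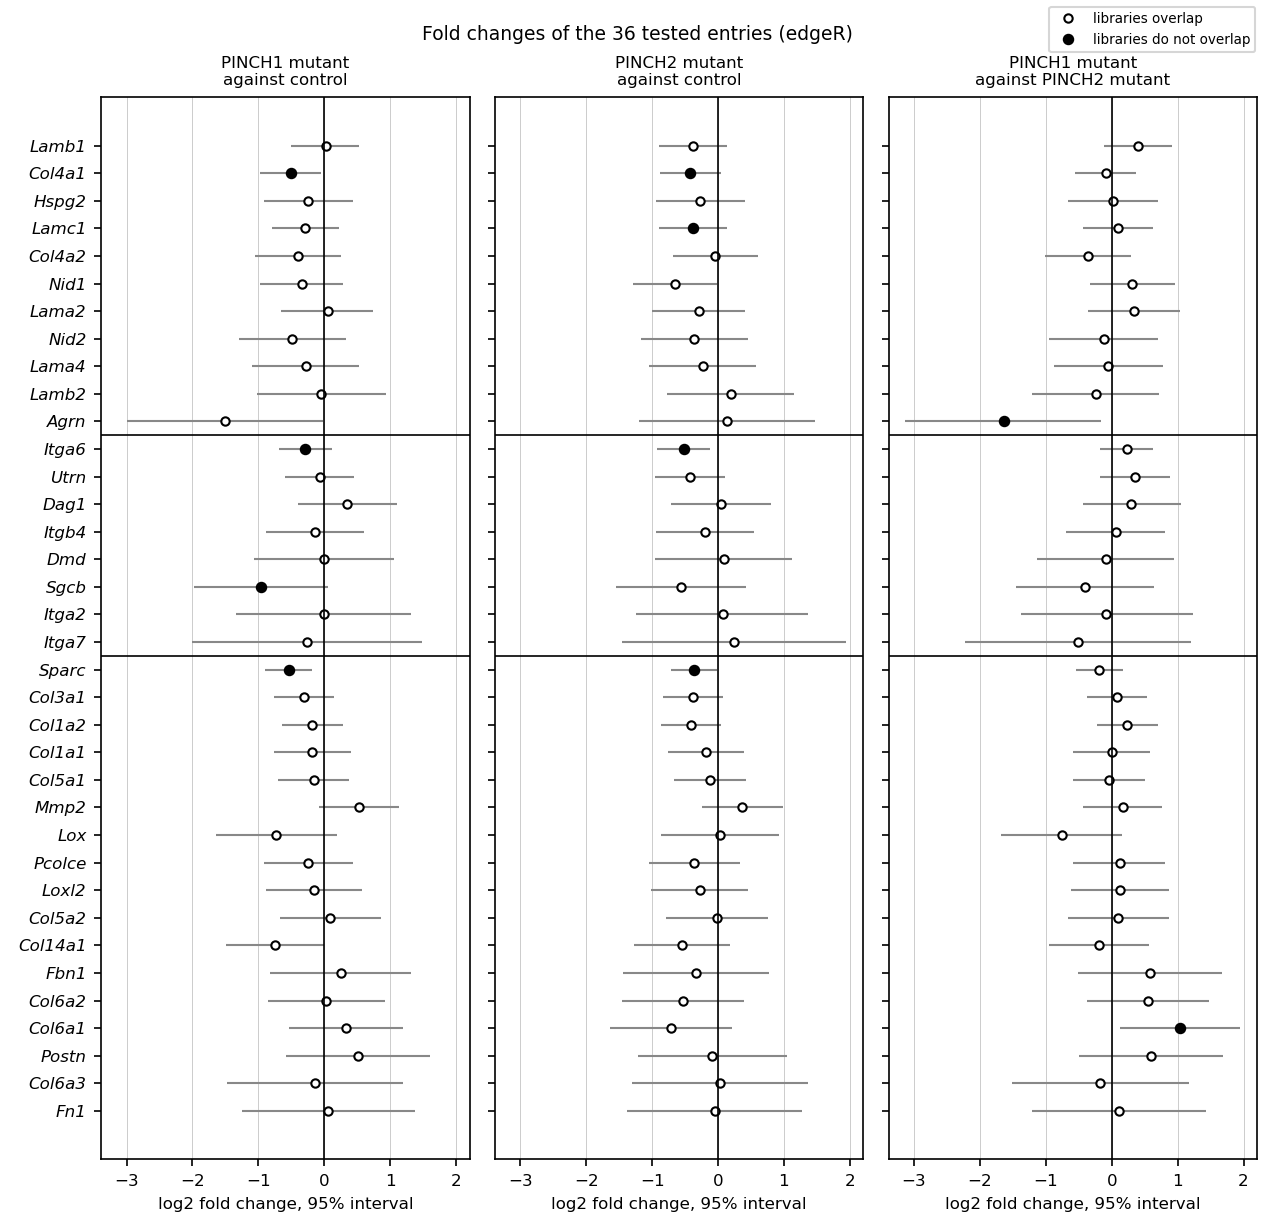
Log2 fold changes with 95% intervals (edgeR) of the 36 tested genes, in panels for PINCH1 mutants against controls, PINCH2 mutants against controls and PINCH1 against PINCH2 mutants. Filled points mark genes whose libraries do not overlap between the groups compared. In the panels against control all 8 filled points lie left of 0, and in the third panel Agrn lies left and Col6a1 right.

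Fibrillar collagens give the endoneurium its tensile strength. Type I collagen is built from Col1a1 and Col1a2 chains, and type III from Col3a1. Col3a1 had 327, 353 and 358 CPM in PINCH1 mutants, 252, 387 and 344 CPM in PINCH2 mutants and 274, 567 and 443 CPM in controls. Col1a2 had 265, 211 and 253 CPM in PINCH1 mutants, 143, 254 and 222 CPM in PINCH2 mutants and 190, 337 and 297 CPM in controls. Groups overlapped for both, and control replicate 1 was the lowest control library for each. For Col3a1 the log2 fold change was -0.31 (SE 0.22) in PINCH1 mutants and -0.38 (SE 0.22) in PINCH2 mutants, and it was 0.08 (SE 0.22) between PINCH1 and PINCH2 mutants. For Col1a2 it was -0.18 (SE 0.22) in PINCH1 mutants and -0.41 (SE 0.22) in PINCH2 mutants. The Col3a1 values rested partly on single controls: without control replicate 1 they were -0.54 in PINCH1 mutants and -0.63 in PINCH2 mutants, and without control replicate 2 they were -0.05 in PINCH1 mutants and -0.13 in PINCH2 mutants. Col1a1 averaged 183 ± 27.1 CPM in PINCH1 mutants, 182 ± 57.3 CPM in PINCH2 mutants and 206 ± 88.7 CPM in controls. The Col1a1 level per kilobase of exon was 1.43 ± 0.224 times that of Col1a2 in PINCH1 mutants, 1.68 ± 0.317 times in PINCH2 mutants and 1.41 ± 0.316 times in controls, so the balance of these chains differed by less than the spread between libraries. With the longest transcript as length, the control ratio was 0.669.

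Type V collagen sets the width of type I fibrils. Col5a1 averaged 94.1 ± 37.7 CPM in PINCH1 mutants, 97.0 ± 12.6 CPM in PINCH2 mutants and 106 ± 12.3 CPM in controls. Col5a2 averaged 28.6 ± 5.64 CPM in PINCH1 mutants, 26.4 ± 12.7 CPM in PINCH2 mutants and 26.9 ± 6.31 CPM in controls. All groups overlapped for both chains. Col14a1, which encodes a collagen that decorates fibrils (ENSMUSG00000022371, chr15:55307750-55520803, plus strand), had 26.5, 12.5 and 24.2 CPM in PINCH1 mutants, 23.3, 25.9 and 24.1 CPM in PINCH2 mutants and 25.8, 36.8 and 44.8 CPM in controls. Each mutant group overlapped the controls through a single pair of libraries near 26 CPM. In PINCH1 mutants the log2 fold change was -0.75 (SE 0.35), with an adjusted p of 0.759 by edgeR.

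Type VI collagen forms beaded filaments around cells from Col6a1, Col6a2 and Col6a3 chains. Col6a1 (ENSMUSG00000001119, chr10:76708792-76726168, minus strand) had 31.0, 23.8 and 26.7 CPM in PINCH1 mutants, 18.0, 10.9 and 11.1 CPM in PINCH2 mutants and 9.30, 35.8 and 19.7 CPM in controls. The PINCH1 mutants all lay above the PINCH2 mutants, and the controls spanned both. Between PINCH1 and PINCH2 mutants the log2 fold change was 1.04 (SE 0.44, 2.05-fold), with an adjusted p of 0.779 by edgeR. Col6a2 averaged 28.2 ± 6.55 CPM in PINCH1 mutants, 19.0 ± 9.91 CPM in PINCH2 mutants and 27.8 ± 17.7 CPM in controls. Col6a3 averaged 11.5 ± 4.42 CPM in PINCH1 mutants, 12.9 ± 6.38 CPM in PINCH2 mutants and 12.6 ± 10 CPM in controls. For these partner chains the mutant groups overlapped. Col6a3 had the widest spread of any tested gene here among controls, the highest control library holding 18.2 times the lowest. Its control counts were 1, 19 and 21, so that ratio rests on 1 count in control replicate 1.

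Sparc (ENSMUSG00000018593, chr11:55394500-55420080, minus strand) was the most abundant of the 51 genes by CPM and also per kilobase, at 174 CPM per kilobase against 37.4 for Col3a1, the next in order. Both Schwann cells and fibroblasts are known to make it. It had 654, 466 and 525 CPM in PINCH1 mutants, 528, 644 and 699 CPM in PINCH2 mutants and 708, 818 and 873 CPM in controls. Neither mutant group overlapped the controls, although the highest PINCH2 mutant library lay just under the lowest control. In PINCH1 mutants its log2 fold change was -0.54 (SE 0.17, 95% interval -0.90 to -0.19, 0.686-fold), with an adjusted p of 0.452 by edgeR. In PINCH2 mutants it was -0.36 (SE 0.17, 95% interval -0.71 to -0.01, 0.780-fold), with an adjusted p of 0.999 by edgeR. Leaving out any 1 library kept the PINCH1 mutant value between -0.68 and -0.44 and the PINCH2 mutant value between -0.44 and -0.25. Those ranges do not cover the choice of scaling. Sparc overlaps no exon on the opposite strand, and separate scaling by such overlap raised other genes without one. Itga6, for example, moved from -0.29 to -0.11 in PINCH1 mutants. The Sparc value under that scaling is not given here.

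Enzymes and glycoproteins of the matrix varied without a common direction. Mmp2, a protease that cleaves type IV collagen, averaged 67.0 ± 12.2 CPM in PINCH1 mutants, 59.3 ± 19.7 CPM in PINCH2 mutants and 46.3 ± 7.47 CPM in controls. Lox, a lysyl oxidase that cross-links collagen, averaged 31.1 ± 17.6 CPM in PINCH1 mutants, 53.6 ± 13.8 CPM in PINCH2 mutants and 52.1 ± 29.2 CPM in controls. Loxl2, of the same family, averaged 27.6 ± 6.60 CPM in PINCH1 mutants, 25.6 ± 10.1 CPM in PINCH2 mutants and 31.1 ± 5.10 CPM in controls. In these 3 genes all groups overlapped. Pcolce, which speeds the trimming of procollagen, averaged 29.7 ± 5.38 CPM in PINCH1 mutants, 27.5 ± 4.23 CPM in PINCH2 mutants and 35.0 ± 8.78 CPM in controls. Its groups overlapped too. Fbn1 (fibrillin-1, of microfibrils) averaged 31.9 ± 17.7 CPM in PINCH1 mutants, 21.7 ± 6.77 CPM in PINCH2 mutants and 27.0 ± 18.7 CPM in controls. Fn1 (fibronectin) averaged 12.4 ± 6.03 CPM in PINCH1 mutants, 11.6 ± 6.62 CPM in PINCH2 mutants and 12.1 ± 10.9 CPM in controls. Postn (periostin) averaged 18.3 ± 6.34 CPM in PINCH1 mutants, 12 ± 7.11 CPM in PINCH2 mutants and 12.8 ± 7.33 CPM in controls. In none of these 3 genes did any pair of groups separate.

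A further 10 fibrillar matrix genes had too few counts to test. Thbs2 (thrombospondin-2) had 7, 9 and 11 counts in PINCH1 mutants, 9, 11 and 5 in PINCH2 mutants and 5, 15 and 11 in controls. Adamts2, which trims procollagen, had 9, 3 and 17 counts in PINCH1 mutants, 3, 11 and 13 in PINCH2 mutants and 3, 7 and 1 in controls. The other 8 (Col12a1, Bgn, Tnc, Fbln2, Eln, Thbs1, Loxl1 and Fbln1) had totals over the 9 libraries of 65 down to 1 count. Thbs1 (thrombospondin-1) had 1, 5 and 1 counts in PINCH1 mutants, 0, 0 and 0 in PINCH2 mutants and 2, 1 and 3 in controls. Fitted by edgeR with no filter on low counts, none of the 10 passed, and Thbs1, named after its values were seen, had an adjusted p of 0.852 between PINCH2 mutants and controls and of 0.825 between PINCH1 and PINCH2 mutants.

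Counted over all tested genes, 26 of 36 had a log2 fold change below 0 in PINCH1 mutants and 27 of 36 in PINCH2 mutants, each against control. That is 72.2% in PINCH1 mutants, against 52.2% of all tested entries, and 75.0% in PINCH2 mutants, against 49.3% of all tested entries. The median was -0.17 in PINCH1 mutants, against -0.02 over all entries, and -0.27 in PINCH2 mutants, against 0.00 over all entries. No set test was made, and both comparisons share their controls. Entries that overlap no annotated exon on the opposite strand, of which 1885 were tested, leaned the same way: 65.0% were below 0 in PINCH1 mutants and 61.0% in PINCH2 mutants. Of the 23 tested matrix and receptor genes without such an overlap, 16 (69.6%) were below 0 in each mutant, a share near that background. Their median was -0.14 in PINCH1 mutants, against -0.19 over all entries without such an overlap. In PINCH2 mutants it was -0.27, against -0.13 over those entries.

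By class, 9 of 11 laminin and basal lamina genes were below 0 in PINCH1 mutants (median -0.29) and 9 of 11 in PINCH2 mutants (median -0.29). Of the receptor and dystrophin complex genes, 7 of 8 were below 0 in PINCH1 mutants (median -0.11) and 4 of 8 in PINCH2 mutants (median -0.08). In the fibrillar matrix class 10 of 17 were below 0 in PINCH1 mutants (median -0.16) and 14 of 17 in PINCH2 mutants (median -0.28). These medians moved when 1 library was left out. In PINCH1 mutants the laminin median was -0.51 without PINCH1 mutant replicate 1 and -0.07 without PINCH1 mutant replicate 2, and the receptor median -0.35 without PINCH1 mutant replicate 1 and 0.02 without PINCH1 mutant replicate 2. The fibrillar median in PINCH1 mutants was -0.25 without control replicate 1 and 0.18 without control replicate 2. In PINCH2 mutants the laminin median was -0.49 without control replicate 1 and -0.16 without control replicate 3. The receptor median there was -0.61 without PINCH2 mutant replicate 2 and 0.02 without PINCH2 mutant replicate 1, and the fibrillar median -0.45 without control replicate 1 and -0.04 without control replicate 2. Scaling entries with and without an opposite-strand overlap separately gave PINCH1 mutant medians of -0.14 for the laminin class, 0.00 for the receptor class and 0.00 for the fibrillar class. Under the main scaling, genes without such an overlap had PINCH1 mutant medians of -0.27 (laminin), -0.04 (receptor) and -0.14 (fibrillar). All entries without one had -0.19. The PINCH2 mutant medians of such genes were -0.25 (laminin), -0.19 (receptor) and -0.36 (fibrillar), against -0.13 over such entries.

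Libraries did not overlap with controls, all lower, for 4 genes in PINCH1 mutants (Sparc, Col4a1, Itga6 and Sgcb) and 4 in PINCH2 mutants (Sparc, Col4a1, Itga6 and Lamc1). Over all tested entries 13.7% did not overlap in PINCH1 mutants, 7.49% being lower, and 9.05% in PINCH2 mutants, 4.81% being lower. An unadjusted p under 0.05 by edgeR was met, always lower, by 4 genes in PINCH1 mutants (Sparc, Col4a1, Col14a1 and Agrn) and 3 in PINCH2 mutants (Sparc, Itga6 and Nid1). Among all tested entries 6.37% met it in PINCH1 mutants, with 4.09% lower, and 4.26% in PINCH2 mutants, with 2.6% lower. Of the 95% intervals against control, 18 of 36 in each mutant lay within a 2-fold change either way, so for the other genes a 2-fold difference was not resolved.

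In the direct comparison of PINCH1 with PINCH2 mutants, 21 of 36 genes were above 0 and 15 (41.7%) below, with a median of 0.07, against -0.02 over all entries, 52.6% of which were below 0. Of the 23 genes without an opposite-strand overlap 39.1% were below 0, against 55.0% of such entries. Of the 17 fibrillar matrix genes, 12 were above 0, with a median of 0.11. Only Col6a1 and Agrn had libraries that did not overlap, and they lay in opposite directions. Over all entries 11.0% did not overlap (5.42% higher and 5.57% lower), and 6.35% had an unadjusted p under 0.05, which 2 of the 36 genes, again Col6a1 and Agrn, met by edgeR.

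**Figure D3:**
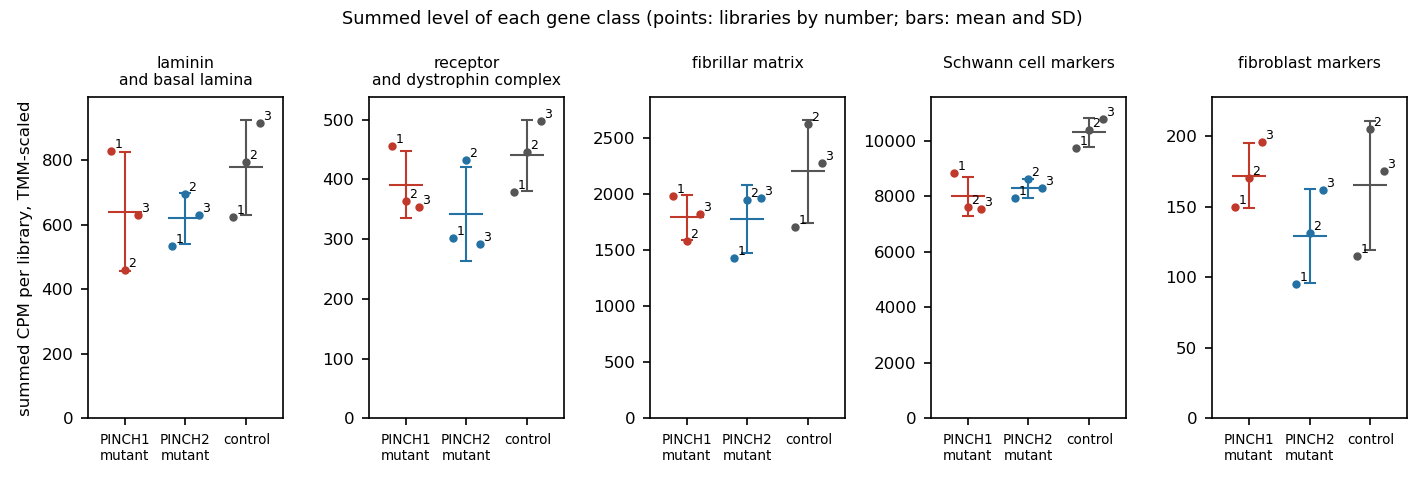
Summed CPM per library of the 3 gene classes and of the Schwann cell and fibroblast marker lists, for PINCH1 mutants, PINCH2 mutants and controls, with library numbers beside the points and bars for mean and SD. Class sums overlap between groups, while the 6 mutant libraries lie below the 3 control libraries for the Schwann cell markers.

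Summed over the class, laminin and basal lamina genes reached 830, 461 and 630 CPM in PINCH1 mutants, 535, 694 and 630 CPM in PINCH2 mutants and 624, 794 and 915 CPM in controls. Receptor and dystrophin complex genes summed to 456, 364 and 353 CPM in PINCH1 mutants, 302, 432 and 291 CPM in PINCH2 mutants and 378, 445 and 497 CPM in controls. Fibrillar matrix genes summed to 1980, 1580 and 1820 CPM in PINCH1 mutants, 1430, 1950 and 1960 CPM in PINCH2 mutants and 1710, 2620 and 2280 CPM in controls. In every class both mutant means were below the control mean and the groups overlapped.

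Markers of the cells that make this matrix were summed in the same way. The 14 Schwann cell markers reached 7560 to 8830 CPM in PINCH1 mutants and 7930 to 8640 CPM in PINCH2 mutants, against 9760 to 10800 CPM in controls, with no overlap. Most of that sum was Pmp22, averaging 4130 CPM over the 9 libraries, and Mbp, which encodes myelin basic protein, averaging 2360 CPM. Of these 14, 13 were below 0 in PINCH1 mutants (median log2 fold change -0.42), against 52.2% of all tested entries, and 12 in PINCH2 mutants (median -0.23), against 49.3%. All of the markers but Prx, Cnp and Dhh overlap no exon of the opposite strand. Among all such entries 65.0% were below 0 in PINCH1 mutants and 61.0% in PINCH2 mutants. None of the 14 markers passed an adjusted p of 0.05 by edgeR, and none was at 0 counts. An unadjusted p under 0.05 was met, always lower, by 4 in PINCH1 mutants, against 6.37% of all entries, and by 2 in PINCH2 mutants, against 4.26%. Pmp22 stood at -0.26 in both, and Mbp at -0.61 in PINCH1 mutants and -0.55 in PINCH2 mutants. The part of the Schwann cell markers in the matrix and receptor differences, Sparc, Col4a1 and Itga6 included, was not tested. In whole nerve, fewer cells of a type and less RNA per cell cannot be told apart. Fibroblast markers summed to 150 to 196 CPM in PINCH1 mutants, 95.3 to 162 CPM in PINCH2 mutants and 115 to 205 CPM in controls, and overlapped. Of 12 such markers 4 were tested, with Dcn (decorin) at -0.08 in PINCH1 mutants and -0.63 in PINCH2 mutants, and Gsn (gelsolin) at -0.09 in PINCH1 mutants and -0.24 in PINCH2 mutants. Lum (lumican) stood at 0.85 in PINCH1 mutants and -0.05 in PINCH2 mutants, and Mfap5, of microfibrils, at -0.68 in PINCH1 mutants and 0.21 in PINCH2 mutants, so 3 of the 4 were below 0 in each mutant. Dcn, Lum and Mfap5 are themselves matrix genes and are counted again in the list of other fibrillar matrix genes. Sfrp2 was at 0 in every library.

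Other cell types of the nerve were thinly covered. Of 10 perineurial markers 3 were tested, 1 of which, Itgb4, is also a receptor gene here, and their sums were 58.4 to 69.2 CPM in PINCH1 mutants, 48.7 to 75.4 in PINCH2 mutants and 60.0 to 81.1 in controls. Endothelial markers, 2 of 12 tested (Egfl7 and Eng), summed to 33.7 to 45.4 CPM in PINCH1 mutants, 44.2 to 61.1 in PINCH2 mutants and 38.2 to 47.1 in controls. Pericyte and smooth muscle markers, 3 of 11 tested (Tagln the highest), summed to 104 to 128 CPM in PINCH1 mutants, 128 to 152 in PINCH2 mutants and 112 to 119 in controls. PINCH2 mutants thus lay above controls for the pericyte and smooth muscle sum, which was not tested. Most of it was Tagln, averaging 79.2 CPM over the 9 libraries, which overlaps exons of the opposite strand. Tagln stood at 0.12 in PINCH2 mutants, and its libraries overlapped the controls. All 3 tested markers were above 0 there, each with an adjusted p of 0.999 by edgeR. Macrophage markers, 3 of 11 tested with Csf1r the highest, summed to 597 to 724 CPM in PINCH1 mutants, 521 to 737 in PINCH2 mutants and 593 to 771 in controls. Most of that sum was Csf1r, at -0.09 in PINCH1 mutants and -0.12 in PINCH2 mutants, which overlaps exons of the opposite strand. Cd163 stood at 0.52 in PINCH1 mutants and -0.08 in PINCH2 mutants, and Cx3cr1 at 1.41 in PINCH1 mutants and 1.17 in PINCH2 mutants (by edgeR an adjusted p of 0.759 in PINCH1 mutants and 0.999 in PINCH2 mutants). Neuron markers (1 of 12 tested, Nefm) summed to 59.0 to 138 CPM in PINCH1 mutants, 120 to 193 in PINCH2 mutants and 94.2 to 192 in controls. Egfl7, Eng, Cx3cr1 and Nefm overlap exons of the opposite strand too. Skeletal muscle markers, which could mark muscle dissected with the nerve, reached at most 10.1 CPM in any library and adipocyte markers at most 12.5 CPM, and none was tested. Acta1, Mb and Myh2 of muscle and Adipoq and Plin1 of fat were at 0 in every library.

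**Figure D4:**
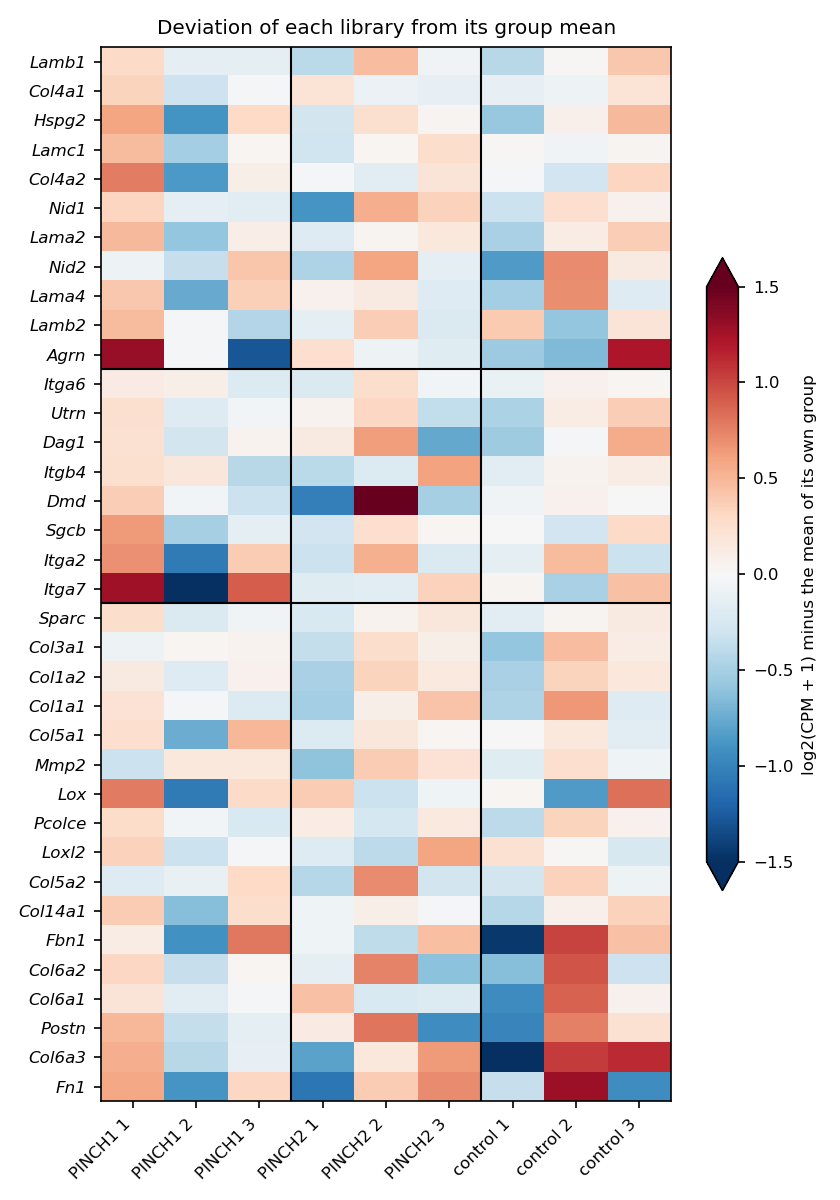
Deviation of each library from the mean of its own group, on the log2(CPM + 1) scale, for the 36 tested genes (rows) in the 9 libraries (columns). PINCH1 mutant replicate 1 is mostly red and replicate 2 mostly blue, and control replicate 1 is mostly blue, across all 3 classes.

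Within groups, matrix and receptor genes tended to move together by library. PINCH1 mutant replicate 1 held the highest value of its group in 30 of the 36 genes (83.3%), against 35.6% of all tested entries. PINCH1 mutant replicate 2 held the lowest in 24 (66.7%, against 40.7%) and the highest in 0. Among PINCH2 mutants, replicate 1 was lowest in 22 genes (61.1%, against 36.2%) and replicate 2 highest in 20 (55.6%, against 30.0%). Control replicate 1 was lowest in 25 genes (69.4%, against 37.8%). This was so in each class: PINCH1 mutant replicate 1 was highest in 10 of 11 laminin and basal lamina genes, 8 of 8 receptor genes and 12 of 17 fibrillar matrix genes. The genes are not independent of each other, and no test was made. Group differences in these genes are thus set against a spread that they share: for the laminin class the median ratio of the highest to the lowest library was 1.99 in PINCH1 mutants, 1.43 in PINCH2 mutants and 1.83 in controls. For the receptor class it was 1.62 in PINCH1 mutants, 1.77 in PINCH2 mutants and 1.66 in controls, and for the fibrillar class 1.61 in PINCH1 mutants, 1.83 in PINCH2 mutants and 2.07 in controls.

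Some counts could come from the opposite strand, because the sources used here do not give whether the counting kept strands apart. Of the 51 genes, 17 share exon bases with an annotated gene on the other strand, 12 of them at least 100 bases. Col4a1 and Col4a2 overlap each other, by the 22 bases printed above, and Itga6, Sparc, Sgcb, Agrn, Lamc1, Col6a1 and Col14a1 have no such overlap. Itga7 shares 9 bases with Mettl7b, which had 4 counts in all. Lama2, Nid1, Itgb4, Lox, Loxl2 and Pcolce share 30 to 631 bases with genes that were not analysed here. The strongest imbalance was at Nid2, whose last 437 exon bases lie over 2700060E02Rik, annotated as Rtraf: that entry held 43172 counts in all against 336 for Nid2. Counts of 2700060E02Rik were 4006, 4853 and 4926 in PINCH1 mutants, 3137, 6245 and 4900 in PINCH2 mutants and 4235, 6068 and 4802 in controls, with overlapping groups. How many Nid2 counts belong to that gene was not tested.

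Col5a1 is overlapped by 2 transcripts of the other strand. Gm13372, with 113 shared bases, had 876, 762 and 1040 counts in PINCH1 mutants, 661, 848 and 667 in PINCH2 mutants and 546, 889 and 703 in controls, in all 7.36 times the counts of Col5a1. After scaling, its PINCH1 mutant libraries all lay above its PINCH2 mutant libraries (edgeR log2 fold change 0.28, SE 0.16, adjusted p = 0.884). 2810430I11Rik, with 99 shared bases, had 136, 31 and 153 counts in PINCH1 mutants, 131, 127 and 77 in PINCH2 mutants and 34, 40 and 91 in controls. PINCH1 mutant replicate 2 was low for both this entry and Col5a1 itself. Gm15419, which shares 43 bases with Col4a2, had 211, 33 and 179 counts in PINCH1 mutants, 243, 142 and 83 in PINCH2 mutants and 78, 54 and 177 in controls.

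Smaller counts lay over Fn1, Fbn1 and Tnc. Apol7d shares 292 bases with Fn1, and had 29, 20 and 52 counts in PINCH1 mutants, 39, 32 and 27 in PINCH2 mutants and 18, 27 and 24 in controls. Gm9913 shares 2442 bases with Fbn1, and had 58, 18 and 60 counts in PINCH1 mutants, 94, 60 and 15 in PINCH2 mutants and 23, 17 and 60 in controls. 8030451A03Rik shares 176 bases with Tnc (tenascin-C), and had 36, 32 and 39 counts in PINCH1 mutants, 40, 39 and 19 in PINCH2 mutants and 21, 22 and 31 in controls. Scaled libraries did not overlap for Apol7d between PINCH2 mutants and controls or for 8030451A03Rik between PINCH1 mutants and controls, both higher in the mutants by 0.53 on the log2 scale. By edgeR the adjusted p was 0.999 for Apol7d and 0.837 for 8030451A03Rik, and no entry on the opposite strand passed the threshold in any comparison.

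**Figure D5:**
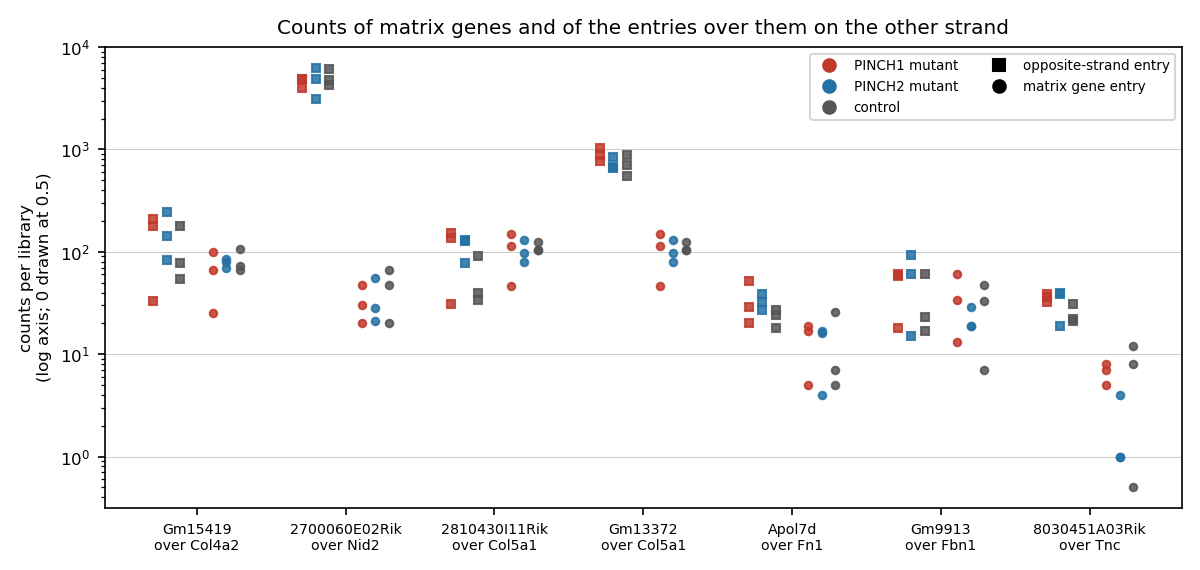
Counts per library (log axis) of 7 entries on the opposite strand (squares, left of each pair) and of the matrix gene they overlap (circles, right), in PINCH1 mutants, PINCH2 mutants and controls. The entry over Nid2 is 128 times as abundant as Nid2 in total counts, while those over Col4a2 and Fbn1 are within 2 times the matrix gene.

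Genes next to these in the same pathways were counted from separate lists, and none passed an adjusted p of 0.05 by edgeR in any comparison. For the counts below 0 in each list, the share of all tested entries was 52.2% in PINCH1 mutants and 49.3% in PINCH2 mutants. Among entries without an opposite-strand overlap it was 65.0% in PINCH1 mutants and 61.0% in PINCH2 mutants. Of 20 other basal lamina components 4 were tested: 2 were below 0 in PINCH1 mutants and 3 in PINCH2 mutants. Sparcl1, a relative of Sparc, had 49, 19 and 62 counts in PINCH1 mutants, 68, 104 and 64 in PINCH2 mutants and 57, 78 and 101 in controls, and Col15a1, a basement membrane zone collagen, had a log2 fold change of -0.27 in PINCH1 mutants and -0.48 in PINCH2 mutants. Sparcl1 stood at -0.90 (SE 0.30) in PINCH1 mutants and 0.00 in PINCH2 mutants, with an adjusted p of 0.5 in PINCH1 mutants by edgeR. Of 14 other integrin subunits 4 were tested, 2 below 0 in PINCH1 mutants and 4 in PINCH2 mutants. Itgb1, the beta subunit shared by most laminin and collagen receptors, was at 0.09 in PINCH1 mutants and -0.12 in PINCH2 mutants, and Itga4 at -0.23 in PINCH1 mutants and -0.33 in PINCH2 mutants.

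A list of 25 other genes covered the dystrophin complex, dystroglycan glycosylation and further surface proteins. Of these 13 were tested, 8 below 0 in PINCH1 mutants and 9 in PINCH2 mutants. The 13 include Sdc3, Sdc4, Bcam, Rpsa and Gpr126, which belong neither to the dystrophin complex nor to dystroglycan glycosylation. Sdc3, Bcam and Rpsa were below 0 in both mutants, Gpr126 in PINCH2 mutants only and Sdc4 in neither. The most abundant of the 13, Gmppb and Pomgnt1, act in dystroglycan glycosylation and both overlap exons of the opposite strand. Gmppb was at 0.07 in PINCH1 mutants and -0.06 in PINCH2 mutants, and Pomgnt1 at 0.35 in PINCH1 mutants and 0.26 in PINCH2 mutants. The lowest p values of this list in PINCH1 mutants were those of Drp2, a dystrophin relative of Schwann cells, and of Prx (periaxin), its partner, which is also among the Schwann cell markers. Drp2 stood at -0.62 (SE 0.21) in PINCH1 mutants and -0.09 in PINCH2 mutants, and Prx at -0.53 (SE 0.18) in PINCH1 mutants and -0.23 in PINCH2 mutants, with adjusted p values in PINCH1 mutants of 0.518 for Drp2 and 0.529 for Prx by edgeR. Of 36 other fibrillar matrix genes and small proteoglycans 14 were tested, 11 below 0 in PINCH1 mutants and 12 in PINCH2 mutants. Ogn (osteoglycin) stood at -0.37 in PINCH1 mutants and -0.25 in PINCH2 mutants, and Col5a3, a type V collagen chain, at -0.32 in PINCH1 mutants and -0.33 in PINCH2 mutants. Their mean levels were 104 CPM for Ogn and 63.4 CPM for Col5a3.

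Enzymes of collagen synthesis and matrix remodelling were split, with 8 of 15 tested below 0 in PINCH1 mutants and 7 of 15 in PINCH2 mutants, of 34 in the list. Loxl3, of the lysyl oxidase family, was at -0.08 in PINCH1 mutants and 0.09 in PINCH2 mutants, and Timp3, an inhibitor of matrix proteases, at -0.50 in PINCH1 mutants and 0.10 in PINCH2 mutants. From a list of 20 genes for Ilk partners and focal adhesion proteins 10 were tested, 6 below 0 in PINCH1 mutants and 7 in PINCH2 mutants. Ilk, the kinase that PINCH proteins bind, was at 0.11 in PINCH1 mutants and 0.23 in PINCH2 mutants, and Pxn (paxillin) at 0.96 in PINCH1 mutants and -0.41 in PINCH2 mutants. Pxn counts were 282, 74 and 230 in PINCH1 mutants, 72, 62 and 79 in PINCH2 mutants and 55, 93 and 145 in controls, so replicate 2 of the PINCH1 mutants lay within the control range. Of 18 genes of transforming growth factor beta signalling, which induces matrix genes, 6 were tested, 4 below 0 in PINCH1 mutants and 5 in PINCH2 mutants, with Ltbp3 at -0.03 in PINCH1 mutants and 0.14 in PINCH2 mutants. Tgfbr2, a receptor, was at 0.01 in PINCH1 mutants and -0.16 in PINCH2 mutants. Among genes named from these lists, Col15a1, Itga4, Prx, Loxl3, Timp3, Ilk and Ltbp3 overlap exons of the opposite strand, as Gmppb and Pomgnt1 do. By edgeR an unadjusted p under 0.05 in PINCH1 mutants, met by 6.37% of all tested entries, was met by 1 other basal lamina component (lower), 0 integrin subunits, 3 genes of the dystrophin and glycosylation list (Drp2 and Prx lower, Pomgnt1 higher), 1 other fibrillar matrix gene (lower), 2 enzymes (1 lower, 1 higher), 1 focal adhesion gene (higher) and 1 gene of growth factor signalling (lower). In PINCH2 mutants, where 4.26% of all entries met it, these were 1 other fibrillar matrix gene, Dcn, lower, and 0 genes of the remaining 6 lists.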

How the data were processed

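RNA-seq read counts of 9 sciatic nerve libraries were used, 3 each from PINCH1 mutants, PINCH2 mutants and controls. The authors deposited whole-number counts per gene entry, with no scaling for depth or length. The submitters' processing notes name the build GRCm38, the aligner HISAT2 2.0.5 and the trimmers cutadapt 1.9.1 and Trim Galore 0.4.2. What counted the reads, from which annotation release and with or without regard to strand, and whether the kit marked strand, is not given in the sources used. A count under a gene name therefore cannot be told from transcription of an overlapping gene on the other strand.

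Entries kept by filterByExpr (4738) were tested with edgeR 4.0.16 (R 4.3.3): TMM scaling, 1 quasi-likelihood model over all 9 libraries with genotype as the only term, Benjamini-Hochberg adjustment over all tested entries and a threshold of 0.05. CPM values are TMM-scaled. Library totals are in the text, and the procedure was tested on simulated data for PINCH1 mutants against control. That simulation drew each entry independently, so it does not cover genes that move together by library. Exon lengths and opposite-strand overlaps of at least 1 base came from GENCODE M21 (GRCm38) with bedtools 2.31.1, where all 51 genes matched by identifier and 96.4% of entries were found. Coordinates of genes are those of the deposited table. Promoter windows came from RefSeq (GRCm38.p6).

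The 51 genes, the related lists and the marker lists were chosen with earlier results of these data known. All tested members are named. Values in every library are given for members with an unadjusted p under 0.05, members whose groups do not overlap and the 3 most abundant of each class. Of untested members the 2 with most counts per class are named with values, or the only one. Opposite-strand entries are named where tested, and of each list up to 2 of the most abundant tested genes; Sparcl1 and Pxn counts, Thbs1 and the values of Drp2, Prx, Lum, Mfap5, Cd163 and Cx3cr1 were added after their values were seen. One Schwann cell marker is not reported here and is in no marker count or sum. Alternatives were scaling by RLE, by upper quartiles or by TMM leaving out the 20 most abundant entries, limma-voom (limma 3.58.1), DESeq2 1.42.0, every entry with a count, entries reaching 1 CPM in 3 libraries, only the 6 libraries compared, a replicate block, separate scaling by opposite-strand overlap, leaving out each library, transcript length and an overlap of 100 bases.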

Additional observations from a re-analysis of the deposited data

How the results depend on the processing

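No member passed the threshold under any alternative run. The smallest adjusted p of a member over all of them was 0.359 in PINCH1 mutants against control, 0.820 in PINCH2 mutants against control and 0.505 between PINCH1 and PINCH2 mutants. Depth left 15 members too low to test. In each mutant 18 of 36 intervals against control reached past a 2-fold change, and the parts of depth and of spread between pools in their width were not tested. Entries past the threshold numbered 3, 1 and 4 in those 3 comparisons. In PINCH1 mutants against control they numbered 7 with DESeq2, 1 with limma-voom, 15 with no filter, 16 with at least 1 CPM in 3 libraries, 1 with only the 6 libraries compared and 1 to 9 when 1 library was left out. In PINCH2 mutants against control they numbered 0 with limma-voom, 0 with only the 6 libraries compared and 0 to 1 when 1 library was left out. Between PINCH1 and PINCH2 mutants they numbered 7 with DESeq2, 20 with no filter, 27 with at least 1 CPM in 3 libraries, 8 with only the 6 libraries compared and 3 to 9 when 1 library was left out. Fewer libraries or more entries enter some of these fits by construction, and otherwise the cause was not tested. Same-numbered libraries correlated at -0.11 to 0.25 in their deviations from group means, and differently numbered ones at -0.198 to 0.144. Whether the replicate numbers pair the libraries cannot be told from so few libraries. With the replicate block, 5, 0 and 6 entries passed in the 3 comparisons and no member, and Hspg2 stood at -0.01 between PINCH1 and PINCH2 mutants.

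Leaving out 1 library moved the class medians of PINCH1 mutants against control within -0.25 to 0.18 for fibrillar matrix, the highest without control replicate 2, and those of PINCH2 mutants against control within -0.61 to 0.02 for the receptor class, the lowest without PINCH2 mutant replicate 2. Values near 0 changed sign. With separate scaling of entries by opposite-strand overlap, PINCH1 mutants against control gave 0.00 for Col1a2 and 0.11 for Utrn. The same scaling gave -0.11 for Itga6 in place of -0.29, -0.11 for Col3a1 in place of -0.31 and -0.54 for Col4a1 in place of -0.51. Between PINCH1 and PINCH2 mutants, Hspg2 gave -0.07 with limma-voom and -0.01 with at least 1 CPM in 3 libraries. Leaving out 1 library in PINCH1 mutants against control gave ranges of -0.16 to 0.24 for Lamb1, -0.38 to 0.00 for Col1a2, -0.55 to 0.07 for Hspg2 and -0.27 to 0.13 for Utrn. In PINCH2 mutants against control it gave -0.33 to 0.38 for Dag1 and -0.51 to 0.01 for Hspg2. Between PINCH1 and PINCH2 mutants it gave -0.28 to 0.35 for Hspg2, -0.28 to 0.06 for Col4a1 and -0.08 to 0.23 for Col3a1. The Col1a1 to Col1a2 ratio in controls was 0.669 by longest transcript, in place of 1.41, because the lengths differ. With an overlap of 100 bases, 12 members in place of 17 had an opposite-strand partner.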
